A study of Mus musculus with 12 samples.

Results

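The 10 genes described here encode the mouse pocket proteins (Rb1, Rbl1 and Rbl2) and the E2F transcription factors that work with or beside them. The E2F genes were divided by their textbook class into activators (E2f1, E2f2 and E2f3), repressors (E2f4 and E2f5) and atypical repressors (E2f7 and E2f8). They were chosen by name, all 10 were among the 24421 genes with values in each library, and all 10 were among the 13375 genes tested, those with a mean of at least 0.5 FPKM (fragments per kilobase of transcript, scaled to library size) over the 12 libraries. E2f7 and E2f8 passed that filter through the TRAMP libraries, since their WT values averaged under 0.5 FPKM, so these genes had to differ between the genotypes and their tests serve as a description.

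RNA was sequenced from the ventral and dorsolateral prostate of TRAMP mice (strain C57BL/6-Tg(TRAMP)8247Ng/J), which carry SV40 T antigen sequences under the probasin promoter, and of wild type (WT) C57BL/6 mice. TRAMP mice on AIN93M diet with 0.05% (w/w) phenethyl isothiocyanate (PEITC) were sampled at 24 weeks (2 libraries) and 16 weeks (2). TRAMP mice on control AIN93M diet were sampled at 24 weeks (2) and 16 weeks (2), and WT mice on control diet at 24 weeks (2) and 16 weeks (1). The last group was 1 tumor of a TRAMP mouse at 24 weeks, listed at 0% PEITC, whose lobe is unknown. PEITC is an isothiocyanate released from watercress and other cruciferous vegetables, and the study asked about its use in cancer prevention. Replicates carry the numbers of the labels, which start at 0. The labels do not say how many animals made a library, so the p-values below reflect only how these samples vary, which may be technical.

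Pocket proteins bind E2F factors and hold their target genes silent until cyclin-dependent kinases (CDKs) phosphorylate them in late G1. The product of Rb1, the retinoblastoma protein, binds chiefly the activators, while the products of Rbl1 (p107) and Rbl2 (p130) bind chiefly E2F4 and E2F5, and p130 with E2F4 joins the MuvB core to silence cell cycle genes in resting cells. Large T antigen carries a short LXCXE sequence with which it binds the pocket proteins, and this frees E2F factors. The adult mouse prostate is largely a resting epithelium, and the probasin promoter directs the transgene to its luminal cells.

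Several of these genes are known E2F targets themselves, so promoter sequences of members that differed between TRAMP and WT prostates are shown first. The RefSeq table (build GRCm38.p6) held windows of 300 bases, running from 250 before to 50 after a start, for 7 of the 10 genes. The start in the only E2f1 window lay 466 bases inside the gene, in GENCODE M21 as in RefSeq, so that window is not printed. The start in the E2f8 window lay 477 bases inside the RefSeq gene but at the GENCODE M21 start of the gene, so that window is printed. E2f2 and E2f3 each had a further window, with starts 8508 and 1673 bases inside the gene, and these windows are not printed. Rb1, E2f4 and E2f5 were not matched. Capitals mark the letters TTTCCCGC, TTTCGCGC, TTTGCCGC or TTTGGCGC, forms of the E2F site, and TTTGAA, the form of the CHR element that MuvB complexes bind. Both strands were searched, no match of either kind overlapped another in the printed stretches, and each stretch of 150 bases is written from 5′ to 3′ on the strand of its gene.
Rbl1, chr2:157204485-157204634, minus strand: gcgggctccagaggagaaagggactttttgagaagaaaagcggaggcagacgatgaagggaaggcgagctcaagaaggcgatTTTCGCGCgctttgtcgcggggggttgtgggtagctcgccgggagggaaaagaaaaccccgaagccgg
Rbl2, chr8:91069957-91070106, plus strand: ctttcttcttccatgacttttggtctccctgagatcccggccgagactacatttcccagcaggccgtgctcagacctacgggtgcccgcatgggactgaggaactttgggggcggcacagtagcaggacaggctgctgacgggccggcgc
E2f2, chr4:136172174-136172323, plus strand: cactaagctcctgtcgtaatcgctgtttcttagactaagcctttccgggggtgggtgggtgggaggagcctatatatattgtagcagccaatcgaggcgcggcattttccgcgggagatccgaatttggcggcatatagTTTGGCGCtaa
E2f3, chr13:29986014-29986163, minus strand: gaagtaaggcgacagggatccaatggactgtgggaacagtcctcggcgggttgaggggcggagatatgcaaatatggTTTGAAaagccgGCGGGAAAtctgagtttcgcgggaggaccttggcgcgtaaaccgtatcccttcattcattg
E2f7, chr10:110745189-110745338, plus strand: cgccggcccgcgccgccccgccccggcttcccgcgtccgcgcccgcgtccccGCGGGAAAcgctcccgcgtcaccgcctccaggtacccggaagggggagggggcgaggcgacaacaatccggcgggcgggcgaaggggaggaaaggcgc
E2f8, chr7:48881547-48881696, minus strand: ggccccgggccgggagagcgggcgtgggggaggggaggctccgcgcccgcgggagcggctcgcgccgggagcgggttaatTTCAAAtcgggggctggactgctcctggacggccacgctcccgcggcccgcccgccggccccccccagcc

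In the 6 printed windows, each taken over its 300 bases, the E2F letters stood in Rbl1 at positions -18 to -11, in E2f2 at 39 to 46, in E2f3 at -11 to -4 and in E2f7 at -198 to -191, with the start base of the window's transcript as 0. The matches of E2f3 and E2f7 lay on the opposite strand and read as their reverse complement. The windows of Rbl2 and E2f8 held none of these letters. The CHR letters stood in E2f8 at -20 to -15 on the opposite strand, in E2f3 at -23 to -18 and in Rbl2 at -201 to -196, outside its printed stretch. The further window of E2f2 held the CHR letters at -31 to -26, and that of E2f3 held neither. Among all 32851 windows of the table, 2.26% held the E2F letters and 17.9% the CHR letters. In the fixed list of S phase E2F targets 10 of the 20 genes with a window held the E2F letters, and in the list of G2/M genes 11 of the 16 with a window held the CHR letters. A match describes the letters and not the binding of a factor.

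The 12 libraries had values above 0 for 17113 to 18505 genes, and their depth relative to the deepest ranged from 0.635 to 1, with 0.635 to 0.694 in the 3 WT libraries and 0.699 in the tumor. FPKM keeps no library total, so no counting interval was computed. The steps between values gave read numbers up to a common factor for 9 of the 10 genes, Rbl2 being the exception. Prostate secretory markers were present throughout, with 7 genes summing to 3377 to 7869 FPKM in the 8 TRAMP prostates, 2619 FPKM in the tumor and 24954 to 29816 FPKM in the WT libraries. The 16-week WT library stood apart: its 5 seminal vesicle markers summed to 7800 FPKM, against at most 8.02 FPKM in any other library, so the 16-week comparison of each member with WT is also given against the 24-week WT libraries. Since the 16-week WT group is 1 library, its tests assume that it varies as the replicated groups do.

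**Figure D1:**
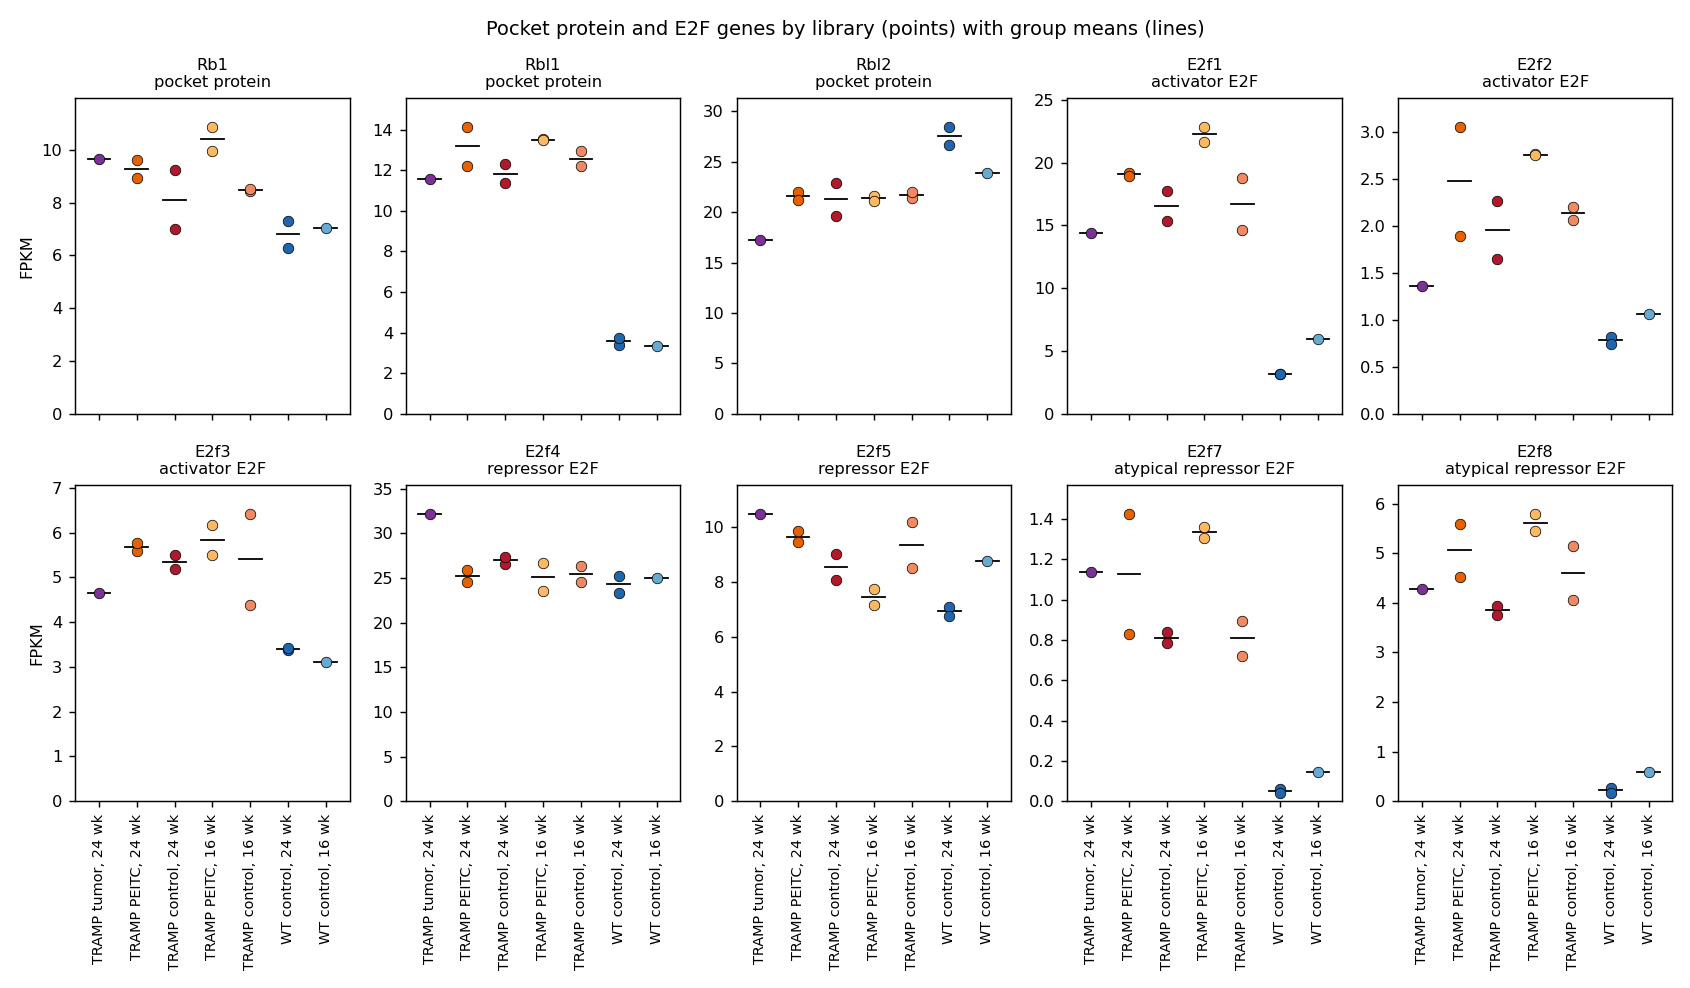
FPKM of each of the 10 genes (y axis, from 0) in every library (points) by group (x axis), with the group mean as a line. Rbl1, E2f1, E2f2, E2f3, E2f7 and E2f8 were higher in all 8 TRAMP prostates than in all 3 WT prostates, and Rbl2 was lower.

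The pocket protein genes moved in different directions. Gene positions below are those of GENCODE M21 on GRCm38, the assembly that mm10 names. Rbl1 was 3.30 times as high in TRAMP as in WT prostates at 24 weeks, Rbl2 was 0.77 times as high, and Rb1 was not called. In bulk tissue, fewer cells of a type and less RNA per cell cannot be told apart. Of the 10 genes, 6 were called higher and 1 lower in TRAMP prostates at 24 weeks by limma at an adjusted p under 0.05, where 23.0% of all tested genes were called higher and 22.0% lower (45.0% in all). At 16 weeks 5 were called higher and 0 lower, where 18.1% of all tested genes were called higher and 15.4% lower (33.6% in all). Leaving aside E2f7 and E2f8, 4 of 8 were called higher at 24 weeks and 3 of 8 at 16 weeks.

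Rbl1 (chr2:157145893-157204534, minus strand) encodes p107, which is made mainly in cycling cells and restrains them together with E2F4. At 24 weeks Rbl1 had 12.3 and 11.3 FPKM in TRAMP prostates on control diet, against 3.41 and 3.75 FPKM in WT prostates. At 16 weeks it had 12.2 and 12.97 FPKM in TRAMP prostates and 3.34 FPKM in the WT prostate. The TRAMP and WT values did not overlap and lay far apart at both ages. The log2 fold change of FPKM + 1 was 1.49 at 24 weeks (SE 0.09, limma adjusted p = 2.20e-05) and 1.65 at 16 weeks (SE 0.11, adjusted p = 6.75e-05), or 1.57 against the 24-week WT libraries.

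Rbl2 (chr8:91070057-91123844, plus strand) encodes p130, the pocket protein of resting cells. It had 22.9 and 19.6 FPKM in 24-week TRAMP prostates on control diet, against 26.6 and 28.5 FPKM in 24-week WT prostates. The 16-week values were 21.4 and 22.04 FPKM in TRAMP prostates and 23.9 FPKM in the WT prostate. Rbl2 was lower in TRAMP prostates without overlap at both ages. Its log2 change was -0.36 at 24 weeks (SE 0.08, adjusted p = 0.00704) and -0.13 at 16 weeks (SE 0.10, adjusted p = 0.307), and against the 24-week WT libraries the 16-week change was -0.33 (adjusted p = 0.011). Fitted on the 24-week TRAMP and WT libraries alone, the 24-week change had an adjusted p of 0.0503.

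Rb1 (chr14:73183673-73325822, minus strand) encodes the retinoblastoma protein itself, the founding tumor suppressor of the family. It had 9.22 and 7.0 FPKM in 24-week TRAMP prostates on control diet, against 6.29 and 7.31 FPKM in WT prostates, and these ranges overlapped. At 16 weeks Rb1 had 8.44 and 8.52 FPKM in TRAMP prostates and 7.04 FPKM in the WT prostate. The log2 differences of 0.22 (95% interval -0.07 to 0.50, adjusted p = 0.194) and 0.24 (-0.11 to 0.59, adjusted p = 0.262) were not called, nor was the 16-week difference of 0.28 from the 24-week WT libraries (adjusted p = 0.101). Without replicate 2 of the 24-week TRAMP controls, the lower of the pair, the 24-week difference was 0.39 (adjusted p = 0.0352). Rb1 overlaps Rcbtb2 and Lpar6 on the other strand, and the labels do not say whether fragments were counted by strand.

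The balance among the pocket proteins differed accordingly. Rbl1 made up 27.7 to 31.4% (median 29.6%) of the summed pocket protein FPKM in the 8 TRAMP prostates, 30.0% in the tumor and 9.38 to 9.73% (median 9.49%) in the 3 WT prostates. Rbl2 made up 47.0 to 51.7% in the TRAMP prostates, 44.8% in the tumor and 69.8 to 73.3% in the WT prostates. The share of Rb1 overlapped, at 18.4 to 23.6% in TRAMP and 17.3 to 20.5% in WT prostates, and was 25.1% in the tumor, above both ranges. FPKM is scaled by transcript length, so these shares compare levels between genes.

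All 3 activator genes were called higher in TRAMP prostates at 24 weeks, and E2f1 had the largest log2 change of FPKM + 1 among the 10 genes at that age. E2f1 (chr2:154559407-154569892, minus strand) encodes the activator best known for driving entry into S phase and, when in excess, apoptosis. It had 15.4 and 17.7 FPKM in 24-week TRAMP prostates on control diet, against 3.14 and 3.18 FPKM in 24-week WT prostates, 5.23 times as high in the mean. At 16 weeks E2f1 had 14.7 and 18.8 FPKM in TRAMP prostates and 5.96 FPKM in the WT prostate. The TRAMP values covered much the same range at both ages, and the 16-week WT value stood above both 24-week WT values.

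The log2 change of E2f1 was 2.07 at 24 weeks (SE 0.11, adjusted p = 1.44e-05) and 1.34 at 16 weeks (SE 0.14, adjusted p = 0.000475). The difference between the ages, 0.73 (95% interval 0.31 to 1.15), had an unadjusted p of 0.00382 and an adjusted p of 0.158, so it was not called. Against the 24-week WT libraries the 16-week change of E2f1 was 2.08.

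E2f2 (chr4:136172394-136196057, plus strand) and E2f3 (chr13:29906575-29986063, minus strand) encode the other activators, which overlap with E2F1 in function. E2f2 had 1.65 and 2.27 FPKM in 24-week TRAMP prostates on control diet, against 0.817 and 0.748 FPKM in WT prostates. At 16 weeks E2f2 had 2.07 and 2.21 FPKM in TRAMP prostates and 1.06 FPKM in the WT prostate. These values did not overlap, but E2f2 was a low gene with 83 to 108 recovered reads in WT libraries. The log2 change was 0.72 at 24 weeks (SE 0.17, adjusted p = 0.0107), which was not called without replicate 2 of the TRAMP controls (adjusted p = 0.0635) or without replicate 1 of the WT mice (0.0551). At 16 weeks it was 0.60 (adjusted p = 0.0583). It was called there with 0.1 added (0.94, adjusted p = 0.0452), after quantile normalization (0.68, adjusted p = 0.0207) and with the 50 genes of highest level left out of the scaling (0.67, adjusted p = 0.0402), and was 0.82 against the 24-week WT libraries (adjusted p = 0.00653).

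E2f3 had 5.50 and 5.18 FPKM in 24-week TRAMP prostates on control diet, against 3.38 and 3.42 FPKM in WT prostates. At 16 weeks it had 4.38 and 6.42 FPKM in TRAMP prostates and 3.10 FPKM in the WT prostate. The TRAMP values were higher throughout, and the 16-week pair was spread wide. The log2 changes of 0.53 (SE 0.14, adjusted p = 0.0195) and 0.62 (SE 0.18, adjusted p = 0.0288) were small beside that of E2f1. The 24-week call was lost when any 1 of its 4 libraries was left out (adjusted p 0.0535 to 0.0781), without the filter (adjusted p = 0.0591) and after quantile normalization (change 0.30, adjusted p = 0.124), so it stands near the threshold. The 16-week call was lost without replicate 1 of the TRAMP controls (change 0.39, adjusted p = 0.0567), without the filter (adjusted p = 0.0731) and in a fit of the compared groups alone (adjusted p = 0.162). Against the 24-week WT libraries the 16-week change of E2f3 was 0.52 (adjusted p = 0.0208).

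Neither repressor gene was called against WT prostates of the same age, but E2f5 was called higher in 16-week TRAMP prostates when set against the 24-week WT libraries. E2f4 (chr8:105297663-105305370, plus strand) encodes the most abundant E2F of most tissues, which lacks its own nuclear import signal and relies on pocket proteins or partners. It was the highest E2F gene in each of the 12 libraries, with 26.6 and 27.4 FPKM in 24-week TRAMP prostates on control diet, against 23.3 and 25.3 FPKM in WT prostates, and with 24.5 and 26.4 FPKM in 16-week TRAMP prostates, against 25 FPKM in the WT prostate. Its log2 differences were 0.15 (95% interval -0.03 to 0.33, adjusted p = 0.154) and 0.024 (-0.20 to 0.24, adjusted p = 0.865), and 0.067 at 16 weeks against the 24-week WT libraries (adjusted p = 0.517).

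E2f5 (chr3:14578641-14606309, plus strand) encodes a close relative of E2F4 that binds mainly p130. It had 9.01 and 8.07 FPKM in 24-week TRAMP prostates on control diet, against 7.09 and 6.78 FPKM in WT prostates. In 16-week TRAMP prostates it had 10.2 and 8.53 FPKM, on both sides of the 8.78 FPKM of the WT prostate. The log2 difference was 0.26 at 24 weeks (95% interval 0.04 to 0.49, unadjusted p = 0.0285, adjusted p = 0.0603) and 0.080 at 16 weeks (adjusted p = 0.644). Against the 24-week WT libraries the 16-week difference of E2f5 was 0.38 (adjusted p = 0.0162). When the scaling ignored the 50 genes of highest level, E2f4 (0.26, adjusted p = 0.032) and E2f5 (0.36, adjusted p = 0.0194) were called higher at 24 weeks. That scaling moved the median log2 change of all genes by 0.0953 at 24 weeks and 0.104 at 16 weeks. Relative to that median, the 24-week changes of E2f4 and E2f5 were 0.16 and 0.27, against 0.15 and 0.27 with the values as deposited. It also raised the share of higher calls among all calls to 66.6% at 24 weeks and 70.3% at 16 weeks, against 51.1% and 54.1% with the values as deposited.

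The atypical repressor genes had the largest ratios between TRAMP and WT prostates. E2f7 (chr10:110745439-110787384, plus strand) and E2f8 (chr7:48866429-48881596, minus strand) encode E2F proteins with 2 DNA-binding domains that need no DP partner and bind no pocket protein. They are E2F targets that accumulate in S phase and then repress other E2F targets, E2f1 among them. E2f8 had 3.94 and 3.76 FPKM in 24-week TRAMP prostates on control diet, against 0.261 and 0.171 FPKM in WT prostates, 17.8 times as high in the mean. At 16 weeks it had 4.06 and 5.14 FPKM in TRAMP prostates and 0.587 FPKM in the WT prostate, a ratio of 7.84.

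The E2f8 log2 change of FPKM + 1 was 2.0 at 24 weeks (SE 0.13, adjusted p = 2.74e-05) and 1.81 at 16 weeks (SE 0.16, adjusted p = 0.000233). Against the 24-week WT libraries the 16-week change was 2.20. The call held in every alternative run for both ages. E2f8 passed the filter through the TRAMP libraries and had to differ, so this too serves as a description. Because the added 1 is large beside the WT values, this scale understates the change, and with 0.1 added instead the 24-week change was 3.66.

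E2f7 was the lowest of the 10 genes in every library. It had 0.839 and 0.783 FPKM in 24-week TRAMP prostates on control diet, against 0.0587 and 0.0411 FPKM in WT prostates, 16.3 times as high in the mean. At 16 weeks it had 0.894 and 0.721 FPKM in TRAMP prostates and 0.144 FPKM in the WT prostate. The WT values rested on few fragments: the recovered read numbers were 147 and 130 in 24-week TRAMP libraries, against 7 and 5 in the 24-week WT libraries.

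The E2f7 log2 change was 0.79 at 24 weeks (SE 0.15, adjusted p = 0.00378) and 0.66 at 16 weeks (SE 0.18, adjusted p = 0.0259), and 2.61 at 24 weeks with 0.1 added. The 16-week call was lost without replicate 0 of the TRAMP controls (adjusted p = 0.086), with 5 added (adjusted p = 0.0569) and in a fit of the compared groups alone (adjusted p = 0.0741), and against the 24-week WT libraries the change was 0.78 (adjusted p = 0.00401). E2f7 overlaps the antisense gene 1700020G17Rik and E2f8 the gene Gm2788 on the other strand, as Rbl2 overlaps Aktip, E2f3 Gm11365 and E2f5 1810022K09Rik. The E2f8 to E2f7 ratio of FPKM was 3.92 to 7.13 in the 8 TRAMP prostates, 3.77 in the tumor and 4.08 to 4.45 in the WT prostates.

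**Figure D2:**
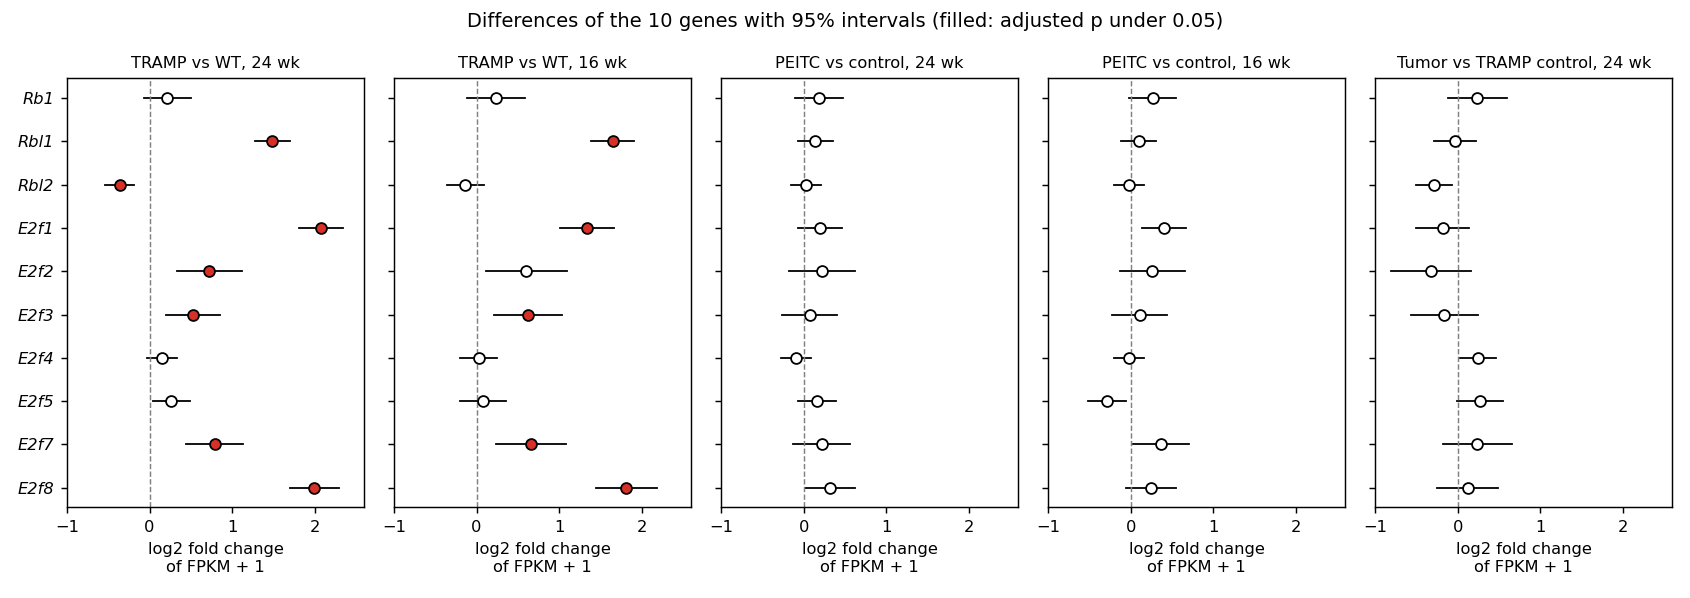
Log2 fold change of FPKM + 1 (x axis) with its 95% interval for the 10 genes (y axis) in 5 comparisons, with filled points for an adjusted p under 0.05. Filled points stand only in the TRAMP comparisons, 7 at 24 weeks and 5 at 16 weeks.

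Over the whole set, 6 of the 10 genes (Rbl1, E2f1, E2f2, E2f3, E2f7 and E2f8) had all 8 TRAMP prostates above all 3 WT prostates, as did 23.0% of the tested genes. E2f7 and E2f8 passed the filter through the TRAMP libraries and had to differ. Only Rbl1, E2f1, E2f2 and E2f3 can therefore be set beside that share. Rbl2 alone had all 8 below all 3, as did 21.3% of the tested genes. The median log2 change of the 10 genes at 24 weeks was 0.62, beside 0.00 over all tested genes. By class the medians were 0.72 for the activators, 0.21 for the repressors and 1.39 for the atypical repressors. E2f7 and E2f8 entered the median of the 10 genes and make up the atypical class, so both of these medians serve as a description.

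The make-up of the summed E2F members differed between the genotypes. The sum leaves out E2f6, a repressor outside the 10 genes, so the shares are not those of all E2F genes. E2f6 averaged 11.4 FPKM in the 8 TRAMP and 10.4 FPKM in the 3 WT prostates. Activators made up 34.7 to 44.8% (median 39.8%) of the summed E2F FPKM in the 8 TRAMP prostates, 29.8% in the tumor and 18.6 to 22.7% (median 19.3%) in the 3 WT prostates. Repressors made up 45.0 to 57.1% in the TRAMP prostates, 62.3% in the tumor and 75.7 to 80.9% in the WT prostates. The atypical pair made up 6.97 to 10.2% in the TRAMP prostates, 7.91% in the tumor and 0.535 to 1.64% in the WT prostates. The summed level of the repressors overlapped, at 31.3 to 35.6 FPKM in TRAMP and 30.4 to 33.8 FPKM in WT prostates, whereas that of the activators was 21.1 to 31.1 FPKM in TRAMP and 7.34 to 10.1 FPKM in WT prostates.

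**Figure D3:**
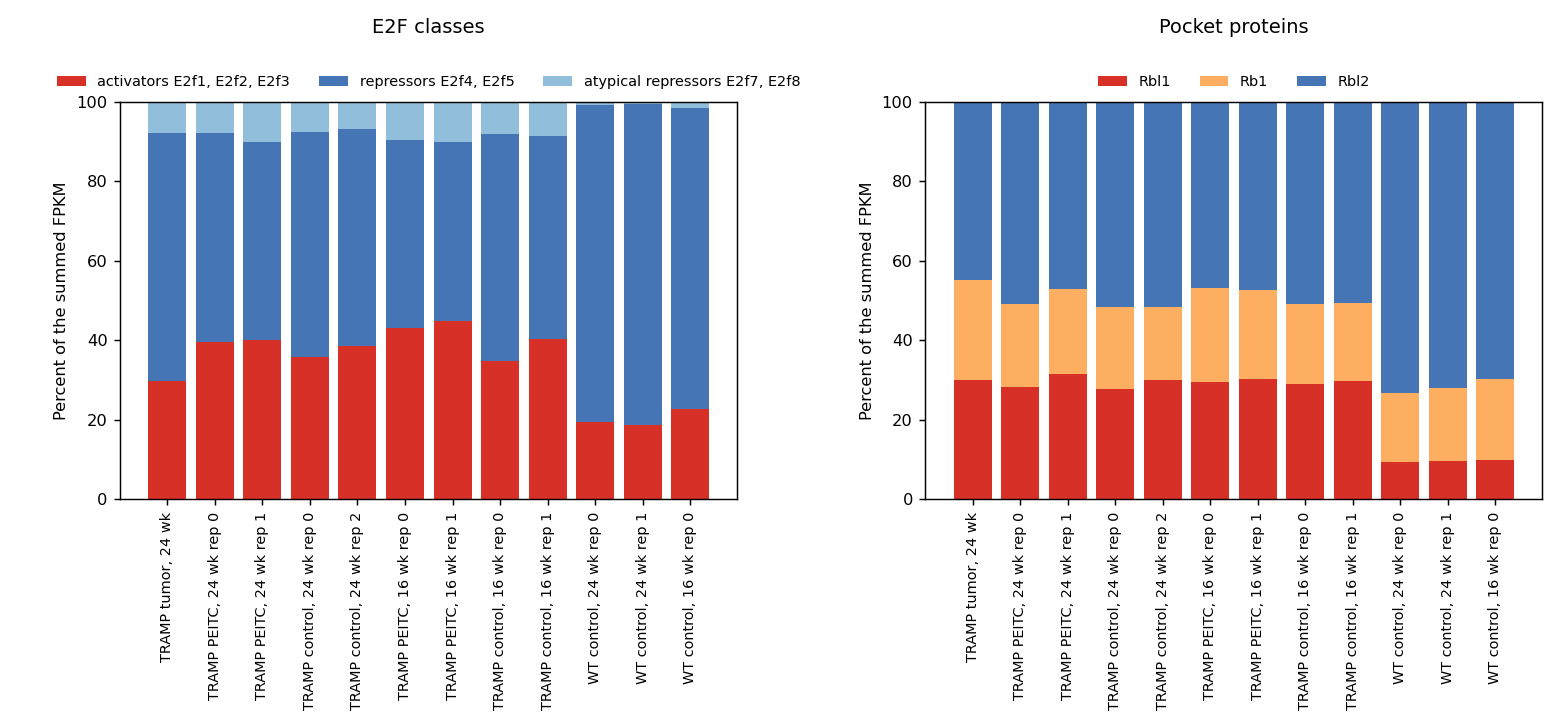
Stacked bars (from 0 to 100%) give, for each library (x axis), the percent of the summed E2F FPKM taken by each E2F class (left) and of the summed pocket protein FPKM taken by each gene (right). The E2F sum leaves out E2f6. The activator share was 34.7 to 44.8% in TRAMP and 18.6 to 22.7% in WT prostates, and the Rbl1 share 27.7 to 31.4% in TRAMP and 9.38 to 9.73% in WT prostates.

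In order of level, the 8 TRAMP prostates had E2f4 (23.5 to 27.4 FPKM), Rbl2 (19.6 to 22.9 FPKM) and E2f1 (14.7 to 22.9 FPKM) at the top, E2f4 above the others and the ranges of Rbl2 and E2f1 overlapping. Rbl1 (11.3 to 14.1 FPKM) followed, then Rb1 (7.0 to 10.9 FPKM) and E2f5 (7.16 to 10.2 FPKM), whose ranges overlapped, then E2f3 and E2f8, which overlapped too, then E2f2 and E2f7. In the 3 WT prostates Rbl2 and E2f4 led with overlapping ranges, and E2f5 and Rb1 came next with overlapping ranges. Then came Rbl1, E2f3 and E2f1. E2f1 (3.14 and 3.18 FPKM) was below Rbl1 (3.41 and 3.75) and E2f3 (3.38 and 3.42) in the 24-week WT libraries. In the 16-week WT library E2f1 (5.96 FPKM) was above Rbl1 (3.34) and E2f3 (3.10).

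Partners and regulators of the same pathway were taken as lists. Among the DP partners and E2f6, a pocket-independent repressor, 1 of 3 was called higher in TRAMP prostates at each age, beside 23.0% of all tested genes at 24 weeks and 18.1% at 16 weeks. Tfdp1, the main partner of the E2F proteins, averaged 53.5 FPKM in TRAMP prostates and 24.8 FPKM in WT prostates at 24 weeks (log2 change 1.08, adjusted p = 2.15e-05). Tfdp2 (-0.11, adjusted p = 0.481) and E2f6 (-0.023, adjusted p = 0.89) were not called.

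Of the 11 G1 and S phase cyclins, kinases and activators, 6 were called higher and 3 lower at 24 weeks, beside 23.0% and 22.0% of all tested genes, so the number called lower is near that background. The higher genes encode cyclins E and A, their kinase Cdk2, Cdk4 and the ubiquitin ligase subunit Skp2: Ccna2 (2.80), Ccne1 (2.53), Skp2 (1.25), Ccne2 (1.24), Cdk2 (1.12) and Cdk4 (0.57), as log2 changes. Ccne1, the cyclin E gene, averaged 10.1 FPKM in TRAMP prostates and 0.918 FPKM in WT prostates. Ccne2 averaged 0.479 FPKM in the WT prostates of both ages. It passed the filter through the TRAMP libraries, so its call serves as a description. The lower genes encode D-type cyclins and their kinase, which act upstream on the pocket proteins: Ccnd1 (-1.72), Cdk6 (-1.19) and Ccnd2 (-0.99). Ccnd1 averaged 6.82 FPKM in 24-week TRAMP prostates and 23.9 FPKM in WT prostates. Ccnd3 (-0.11) and Cdc25a (0.11) were not called.

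CDK inhibitors block those kinases, and 5 of 7 were called higher and 0 lower at both ages. Of all tested genes 23.0% were called higher and 22.0% lower at 24 weeks, and 18.1% and 15.4% at 16 weeks. Cdkn2a, which encodes an inhibitor of CDK4 and CDK6 and the ARF protein, averaged 127.8 FPKM in TRAMP prostates and 0.48 FPKM in WT prostates at 24 weeks. Over the WT prostates of both ages it averaged 0.464 FPKM. It passed the filter through the TRAMP libraries, so its call serves as a description. The log2 changes at 24 weeks were 6.44 for Cdkn2a, 2.82 for Cdkn2c, 1.65 for Cdkn2b, 1.22 for Cdkn2d and 0.90 for Cdkn1b. Cdkn1a (0.42) and Cdkn1c (-0.10) were not called.

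The MuvB core with its MYB and FOXM1 partners turns from repressor to activator as cells pass to G2. Of its 8 genes 7 were called higher and 0 lower at 24 weeks (5 and 0 at 16 weeks). Of all tested genes 23.0% were called higher at 24 weeks and 18.1% at 16 weeks. Mybl1 and Mybl2 averaged 0.145 and 0.394 FPKM in WT prostates. They passed the filter through the TRAMP libraries, so their calls serve as a description. The 24-week log2 changes were 1.85 for Foxm1, 1.46 for Lin9, 0.82 for Mybl1, 0.77 for Mybl2, 0.64 for Lin54, 0.32 for Rbbp4 and 0.20 for Lin37. Lin52 (-0.23, adjusted p = 0.107) was not called.

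Downstream, all 24 genes of the S phase E2F target list were called higher at 24 weeks, beside 23.0% of all tested genes. At 16 weeks 23 were, beside 18.1%, the exception being Rrm2 (0.57, limma adjusted p = 0.112). Orc1 and Brca1 averaged 0.245 and 0.425 FPKM in WT prostates. They passed the filter through the TRAMP libraries, so their calls serve as a description. The median log2 change of the 24 S phase genes was 2.25 at 24 weeks and 2.13 at 16 weeks, beside 0.00 and 0.02 over all tested genes. The largest 24-week changes were those of Mcm3 (4.01), Mcm5 (3.79) and Mcm6 (3.5), subunits of the replicative helicase, and of Cdt1 (3.39), which loads it. All 19 G2/M genes were called higher at both ages, beside the same shares, with a median of 2.22 at 24 weeks and 1.53 at 16 weeks. The 16-week median rests on the lone 16-week WT library. Ube2c, Ccnb2, Cdk1 and Cdc20 had 7.51, 4.70, 3.91 and 6.46 FPKM there, against WT means of 1.49, 1.15, 1.31 and 1.95 FPKM at 24 weeks. In control-fed TRAMP prostates the median G2/M difference of 24 from 16 weeks was -0.12. The lists were not set against the 24-week WT libraries at 16 weeks. Bub1, Cenpe and Ttk averaged 0.280, 0.416 and 0.421 FPKM in WT prostates, so their calls too serve as a description. Ube2c (3.27), Ccnb2 (3.20), Cdk1 (3.10) and Cdc20 (3.09), which drive entry into and exit from mitosis, led at 24 weeks.

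Among apoptosis genes described as E2F1 targets, Apaf1, which encodes the scaffold of the apoptosome, was called higher at 24 weeks with a log2 change of 0.76, and Bbc3 (0.064) was not called. Trp73 and Pmaip1 did not pass the filter, Pmaip1 averaging 0.568 FPKM in TRAMP and 0.0856 FPKM in WT prostates.

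**Figure D4:**
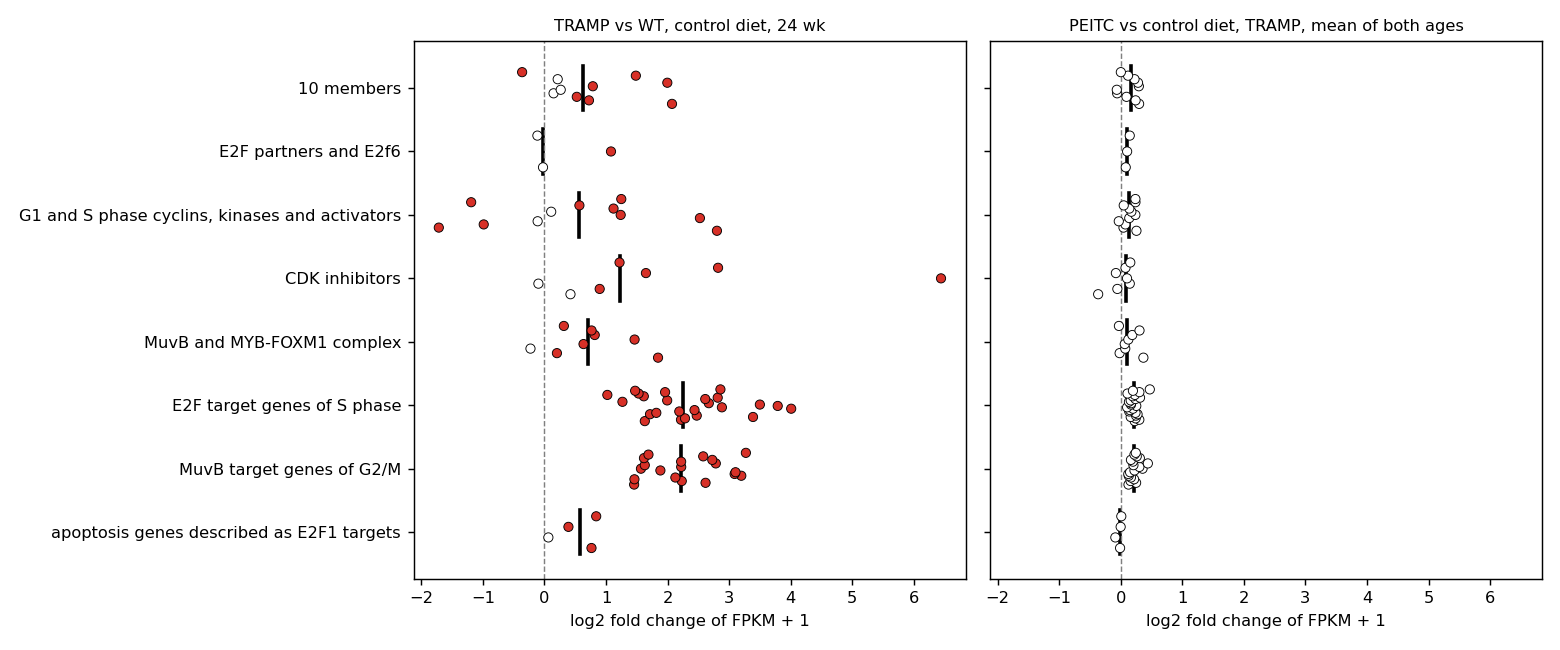
Log2 fold change of FPKM + 1 (x axis) for each gene (points, filled where the adjusted p was under 0.05) of the 10 members and of 7 pathway lists (y axis), with list medians as solid bars and the median of all tested genes as a dashed line. The left panel compares TRAMP with WT prostates at 24 weeks, where the S phase and G2/M medians were 2.25 and 2.22, and the right panel compares PEITC with control diet in TRAMP prostates, where no point is filled.

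Markers of other cell types differed between the same groups at 24 weeks. Called lower in TRAMP prostates were 6 of 7 secretory, 4 of 5 luminal, 4 of 4 basal and 4 of 6 smooth muscle markers, as were 3 of 5 seminal vesicle and 2 of 3 tested skeletal muscle markers, beside 22.0% of all tested genes. Called higher were 3 of 4 macrophage, 3 of 4 tested T and NK cell and 2 of 2 tested B and plasma cell markers, beside 23.0% of all tested genes. No fibroblast, endothelial, neuroendocrine or adipocyte marker was called. Basal markers summed to 26.6 to 48.9 FPKM in the 8 TRAMP prostates and 104.4 to 134.0 FPKM in the 3 WT prostates. Of these markers, Svs6 of the seminal vesicle list was at 0 in the tumor and in both 24-week WT libraries, and no other was at 0 in all 8 TRAMP prostates, in the tumor or in all WT libraries of an age. Macrophage markers summed to 58.3 to 186.7 FPKM in the TRAMP prostates and 34.9 to 41.2 FPKM in the WT prostates. The part of these markers in the differences above was not tested.

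No member was called between PEITC-fed and control-fed TRAMP prostates. At 24 weeks 0 of 10 members and 0.0% of all tested genes were called by limma, with 1 member and 1267 genes at an unadjusted p under 0.05. At 16 weeks 0 of 10 members and 0.00748% of the genes (1 gene) were called, with 3 members and 1347 genes at an unadjusted p under 0.05. For the mean of both ages 0 of 10 members and 0.0% of the genes were called, with 4 members and 889 genes at an unadjusted p under 0.05.

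E2f1 had 19.2 and 19.0 FPKM in PEITC-fed TRAMP prostates and 15.4 and 17.7 FPKM in control-fed TRAMP prostates at 24 weeks. At 16 weeks it had 21.6 and 22.9 FPKM in PEITC-fed and 14.7 and 18.8 FPKM in control-fed TRAMP prostates. All 4 PEITC values lay above all 4 control values, the closest pair being 19.0 and 18.8 FPKM, and 1.29% of the tested genes showed the same separation. The mean log2 difference was 0.30 (95% interval 0.11 to 0.49, unadjusted p = 0.00637, adjusted p = 0.735).

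E2f8 had 4.52 and 5.59 FPKM in PEITC-fed and 3.94 and 3.76 FPKM in control-fed TRAMP prostates at 24 weeks. Its 16-week values were 5.44 and 5.79 FPKM in PEITC-fed and 4.06 and 5.14 FPKM in control-fed TRAMP prostates. The diets did not overlap within either age but did across ages. The mean log2 difference of E2f8 was 0.28 (95% interval 0.07 to 0.49), that of E2f7 0.29 (0.05 to 0.54) and that of Rb1 0.22 (0.02 to 0.43), each with an adjusted p of 0.735. One 24-week PEITC library (replicate 1) was the highest of the 4 for E2f7, with 1.43 FPKM beside 0.832 FPKM in the other PEITC library and 0.839 and 0.783 FPKM in the controls.

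The PEITC difference of E2f5 had opposite signs at the 2 ages, as had that of Rbl2 (0.026 at 24 weeks and -0.022 at 16 weeks). It had 9.46 and 9.85 FPKM in PEITC-fed and 9.01 and 8.07 FPKM in control-fed TRAMP prostates at 24 weeks, and 7.16 and 7.77 FPKM in PEITC-fed and 10.2 and 8.53 FPKM in control-fed TRAMP prostates at 16 weeks. The diets did not overlap at either age, with PEITC above at 24 weeks and below at 16 weeks, but with 2 libraries a diet such separation is easily met. The log2 difference was 0.16 at 24 weeks and -0.29 at 16 weeks, and the difference between these, 0.45 (95% interval 0.13 to 0.77, unadjusted p = 0.0125, adjusted p = 0.306), was not called. By that test 0 of 10 members and 0.00748% of all tested genes were called, with 1 member and 1720 genes at an unadjusted p under 0.05.

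For the remaining members the mean log2 difference with PEITC was 0.24 for E2f2, 0.12 for Rbl1, 0.094 for E2f3, 0.0019 for Rbl2, -0.058 for E2f4 and -0.064 for E2f5. Their intervals and those above reached from -0.23 to 0.54, so changes within those limits were not resolved by 4 libraries a diet. The activator share of the E2F sum was 39.6 to 44.8% in the 4 PEITC-fed and 34.7 to 40.2% in the 4 control-fed TRAMP prostates, overlapping ranges. None of the 7 pathway lists had a called gene. The mean log2 difference had a median of 0.21 over the 24 S phase genes and 0.22 over the 19 G2/M genes, beside 0.00 over all tested genes, with 15 and 5 genes at an unadjusted p under 0.05. No cell type marker was called with PEITC, but the median log2 difference was 0.63 over the 6 smooth muscle and 0.48 over the 4 basal markers at 16 weeks and 1.74 over the 3 tested neuroendocrine markers at 24 weeks. The part of these markers in the PEITC differences was not tested. The PEITC comparisons and the TRAMP comparisons with WT share the control-fed TRAMP libraries, so their directions are not independent.

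Age made no called difference in control-fed TRAMP prostates. Of the 10 members 0 were called between 24 and 16 weeks, where 0.00748% of all tested genes were, and 0 members had an unadjusted p under 0.05, as 2261 genes had. The log2 differences ran from -0.20 for E2f8 (95% interval -0.50 to 0.10) to 0.082 for E2f4 (-0.098 to 0.26). The difference of the TRAMP effect between the ages was called for 0 of 10 members, where 0.366% of all tested genes were (0.329% higher and 0.0374% lower), with 1 member (E2f1) and 2108 genes at an unadjusted p under 0.05.

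The tumor was a single library without a replicate, and its place against the range of the 8 TRAMP prostates is given gene by gene below. The share of all tested genes outside that range was not counted, so a place outside it serves as a description. Against 24-week TRAMP prostates on control diet 0 of 10 members were called, where 11.8% of all tested genes were (5.59% higher and 6.17% lower), and 2 members and 3809 genes had an unadjusted p under 0.05. The test assumes that the lone tumor varies as the replicated groups do.

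Rbl2 had 17.2 FPKM in the tumor, below all 8 TRAMP prostates (19.6 to 22.9 FPKM). Its log2 difference from the control-fed TRAMP prostates was -0.28 (95% interval -0.50 to -0.06, adjusted p = 0.0968), and without replicate 2 of those controls it was -0.39 (adjusted p = 0.0383). E2f4 had 32.2 FPKM in the tumor, above all 8 TRAMP prostates (23.5 to 27.4 FPKM), with a log2 difference of 0.24 (0.03 to 0.46, adjusted p = 0.138). E2f5, at 10.5 FPKM, also lay above the 8.

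E2f1 had 14.4 FPKM and E2f2 1.36 FPKM in the tumor, each below all 8 TRAMP prostates, while their levels stayed above all 3 WT prostates. The log2 differences from control-fed TRAMP prostates, -0.18 (95% interval -0.51 to 0.14) for E2f1 and -0.32 (-0.80 to 0.17) for E2f2, were not called. Rb1 (9.67 FPKM), Rbl1 (11.5 FPKM), E2f3 (4.66 FPKM), E2f7 (1.14 FPKM) and E2f8 (4.28 FPKM) lay inside the range of the 8. Of the pathway lists, 3 genes were called higher and 0 lower in the tumor: Cdkn1a by 1.55, Ube2c by 0.93 and Apaf1 by 0.69 on the log2 scale. They were 1 of 7 CDK inhibitors, 1 of 19 G2/M genes and 1 of 4 tested apoptosis genes, and the other lists had none. Of all tested genes 5.59% were called higher and 6.17% lower, so over all the lists the number called is not above that background. The tumor's 4 endothelial markers summed to 16.0 FPKM, against 3.01 to 8.05 FPKM in the TRAMP prostates, and their part in these values was not tested.

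The genes whose profiles over the 12 libraries were most like each member were found by the root mean square distance between log2(FPKM + 1) profiles centred on their own means, among 12526 named genes. For Rbl1 they were Slbp (0.0771), Topbp1 (0.0816) and Dnajc9 (0.0908), in log2 units. For E2f1 they were Tcf19 (0.123), Fanca (0.128) and Kntc1 (0.136). Slbp encodes the histone stem-loop binding protein, and Fanca and Topbp1 encode proteins of DNA repair and checkpoint control.

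For E2f8 the nearest were Kif18b (0.0638), Bub1b (0.0682) and Smc2 (0.0883), and for E2f7 Mybl2 (0.0852), Ccdc18 (0.0892) and Efcab11 (0.0911). Kif18b, Bub1b and Smc2 encode a mitotic kinesin, a spindle checkpoint kinase and a condensin subunit. E2f2 was nearest to Fbxo48, Myo5a and Rnf157 (0.12 to 0.131), and E2f3 to Gabpb2, Mast3 and Cep152 (0.0745 to 0.0868). Rb1 (Gmeb1, Cntrl and Arhgap21), Rbl2 (Fbxo9 and Slc37a3), E2f4 (Tsfm, Eif4a1 and Il17ra) and E2f5 (Pof1b, Cav2 and Gclm) varied little over the libraries, by 0.45 to 0.70 log2 units, so small distances are easily met for them. The profiles share the step between 9 TRAMP and 3 WT libraries, so these distances are a description of level patterns and nothing more.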

How the data were processed

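The authors deposited FPKM values (read numbers scaled by transcript length and library size) for 24421 genes in 12 libraries. Per the submitters' processing notes, HISAT2, Picard, featureCounts, DESeq2 and the mm10 build were used; their versions and roles, the annotation and the strand setting are not stated there. No count test was run, because FPKM is a normalized unit. Values were taken as log2(FPKM + 1), the 13375 genes averaging 0.5 FPKM or more were kept, and all 7 groups were fitted together with limma 3.58.1 in R 4.3.3 (5 residual degrees of freedom, intensity trend, two-sided, Benjamini-Hochberg over all genes tested, called at an adjusted p under 0.05). Fold changes on this scale understate those of low genes. Relative depth and read numbers came from the steps between FPKM values (tolerance 0.12 reads). The members, lists and tests were chosen with earlier results of these data known. Named genes were the 10 members, every gene of lists of 11 or fewer, the 4 called genes of longer lists with the largest 24-week change, and the 3 nearest profiles of each member; a few of these genes are not reported here. Gene positions came from GENCODE M21 (GRCm38) and promoters from RefSeq. Alternatives were pseudocounts of 0.1 and 5, no filter, quantile normalization, 50 genes left out of the scaling, fits of the compared groups alone, each library left out in turn, the 24-week WT libraries as 16-week control, and a replicate block. Figures used Python 3.11.15 and matplotlib 3.10.9.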

Additional observations from a re-analysis of the deposited data

How the results depend on the processing

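Of 666 member values under the alternatives, 626 kept their direction and side of the threshold, 10 became called, 15 lost the call and 15 reversed. Only TRAMP against WT had called members. There 88 values were kept at 24 weeks, 3 became called and 9 lost the call. At 16 weeks 74 were kept, 6 became called, 6 lost the call and 4 reversed. For age only E2f4 and E2f8 were counted, and for the differences of the PEITC and TRAMP effects only E2f5 and E2f1. The reversed values were all small and not called. At 16 weeks, TRAMP against WT, quantile normalization gave -0.027 for E2f4 and -0.021 for E2f5. Leaving out each library in turn gave, at 16 weeks, -0.026 to 0.074 for E2f4 and -0.037 to 0.20 for E2f5. With PEITC at 24 weeks it gave -0.080 to 0.13 for Rbl2 and -0.024 to 0.46 for E2f2, at 16 weeks -0.12 to 0.34 for E2f3 and -0.11 to 0.064 for E2f4, and over both ages -0.051 to 0.055 for Rbl2 and -0.022 to 0.21 for E2f3. For Rbl1 in the tumor it gave -0.084 to 0.023. Counts of all genes called moved more. Without the filter they were 49 (PEITC, 24 weeks), 24 (16 weeks), 61 (both ages), 40 (age), 74 and 412 (differences of the PEITC and TRAMP effects between ages). Fits of the compared groups alone gave 2198 for TRAMP at 16 weeks, 1 for PEITC at 24 weeks and 0 for PEITC at 16 weeks, age, the tumor and the difference of the PEITC effect. A pseudocount of 0.1 gave 2 for PEITC at 16 weeks and 27 for the difference of the TRAMP effect. Leaving out each library gave 0 to 160 (PEITC, 24 weeks), 0 (16 weeks), 0 to 16 (both ages), 1 to 260 (age), 0 to 124 (difference of the PEITC effect) and 33 to 82 (difference of the TRAMP effect). The highest of these, 160, 260, 124 and 82, came without replicate 2 of the 24-week TRAMP controls. The cause was not tested. Among the groups compared with each other, replicate numbers are shared in full only by the 16-week TRAMP diets. Same-numbered libraries deviated in opposite directions (correlation -0.31), so the numbers were not taken as pairs; the replicate block gave 0 calls and the crossed pairing, added after seeing the data, also 0. FPKM holds no read totals, so the counting error of the low WT values of E2f7 and E2f8 was not computed.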
